A study of Sus scrofa with 2 samples.

Results

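Peaks of the zinc finger transcription factor ZBTB16 (also called PLZF) that lie in exons were taken from 2 peak lists of pig testis cells. The members were all peaks whose deposited annotation class was an exon, and they were split by the exon number in that annotation into first exons and later exons. This gave 1068 exon peaks of 17574 peaks in all. In replicate 1, 653 of 10273 peaks (6.36%) were exon peaks, 241 in first exons and 412 in later exons. In replicate 2, 415 of 7301 peaks (5.68%) were exon peaks, 165 in first exons and 250 in later exons.

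ZBTB16 is a transcription factor known mostly as a repressor, which marks undifferentiated spermatogonia and is needed for their maintenance in mice. Transcription factors bind mostly at promoters and at distal enhancers, and a first exon begins at the transcription start site (TSS), so binding there lies at the edge of the promoter. Later exons lie inside the gene body, where they can overlap internal promoters, enhancers or coding sequence that is accessible in chromatin.

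The study profiled ZBTB16 by CUT&Tag, in which a transposase tethered by an antibody cuts DNA around the bound protein and the released fragments are sequenced. Both libraries were made from 100000 immature spermatogonia of wild-type (WT) pigs, labelled as testis tissue, and form 1 group with replicates 1 and 2. The labels do not say whether the libraries came from separate animals or cultures, and they give no age for these cells. The IgG control named in the protocols and the knockdown experiments named in the study's design were not analysed here.

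Each peak carries a fold enrichment, the linear ratio of the fragments at its summit to the local background. The number of fragments at the summit was recovered from the fold and the deposited p-value of each peak. A peak recurred when it overlapped a peak of the other library by 1 bp or more. The p-values below compare peaks within these libraries and not conditions, and neighbouring peaks are not independent. Intervals are Wilson 95% intervals for shares and exact Poisson intervals for fragments, and they cover counting error only.

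Exon peaks had a lower median fold than peaks outside exons, most of which were promoter peaks. The median fold in replicate 1 was 4.67 in first exons (quartiles 3.96 and 5.45) and 4.50 in later exons (quartiles 4.0 and 5.13), against 5.0 outside exons. In replicate 2 it was 4.57 in first exons (quartiles 4.05 and 5.21) and 4.56 in later exons (quartiles 4.04 and 5.44), against 5.02 outside exons. First and later exons therefore overlapped over most of their range of fold. A low fold was not particular to exons. In replicates 1 and 2 the median was 4.37 and 4.39 for intron peaks and 4.53 and 4.55 for distal intergenic peaks. Promoter peaks had 5.33 and 5.25, and 5′ UTR peaks 4.81 and 4.93. The highest fold was 10.4 in an exon and 29.6 outside exons in replicate 1, and 8.93 and 27.6 in replicate 2.

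The summits of exon peaks rested on few fragments. The median was 13 fragments in first exons and 14 in later exons of replicate 1, against 16 outside exons, and 12 in both exon groups of replicate 2, against 14. When each list was split at its quartiles of summit fragments, the lowest class, 7 to 12 fragments in replicate 1 and 6 to 11 in replicate 2, held 266 (40.7%) and 170 (41.0%) of the exon peaks. Ties make the classes unequal, and the lowest held 28.6% and 30.3% of all peaks. The highest class held 85 (13.0%) and 65 (15.7%) of the exon peaks, against 24.3% and 23.5% of all peaks. Exon peaks were also narrower than these, with median widths in replicate 1 of 392 bp in first exons and 450 bp in later exons, against 512 bp outside exons. Intron and distal intergenic peaks were lower and narrower still. In replicate 1 their medians were 12 and 11 fragments and 365 and 383.5 bp. In replicate 2 both had 10 fragments, with widths of 361 and 369 bp.

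Later exons held 662 of the 1068 peaks, or 62.0% (59.0 to 64.8). In replicate 1, 95 lay in exon 2, 60 in exon 3, 158 in exons 4 to 10 and 99 in exons beyond the tenth, and in replicate 2 the counts were 69, 34, 95 and 52. The last exon of its transcript held 62 and 26 of the later-exon peaks. Transcripts with 1 exon, which count here as first exons, held 16 and 18 peaks.

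The distance to the TSS separated the groups. Distances are taken here without their sign, from the peak to the TSS of the assigned gene. First-exon peaks lay a median of 248 bp from it in replicate 1 (quartiles 124 and 553 bp) and 204 bp in replicate 2 (quartiles 81 and 607 bp). Of these, 173 of 241 and 117 of 165 lay 1 to 500 bp downstream. Later-exon peaks lay at a median distance of 7322 bp in replicate 1 (quartiles 2982 and 15145 bp) and 6814 bp in replicate 2 (quartiles 2393 and 16644 bp), and 79 and 50 of them lay upstream of that TSS. More than 3 kb from the TSS of the assigned gene were 308 of 412 and 181 of 250 later-exon peaks, but only 8 and 1 first-exon peaks. Peaks at −2995 to 0 bp carry the promoter class in these lists, so a peak that touches the TSS is not an exon peak here.

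**Figure D1:**
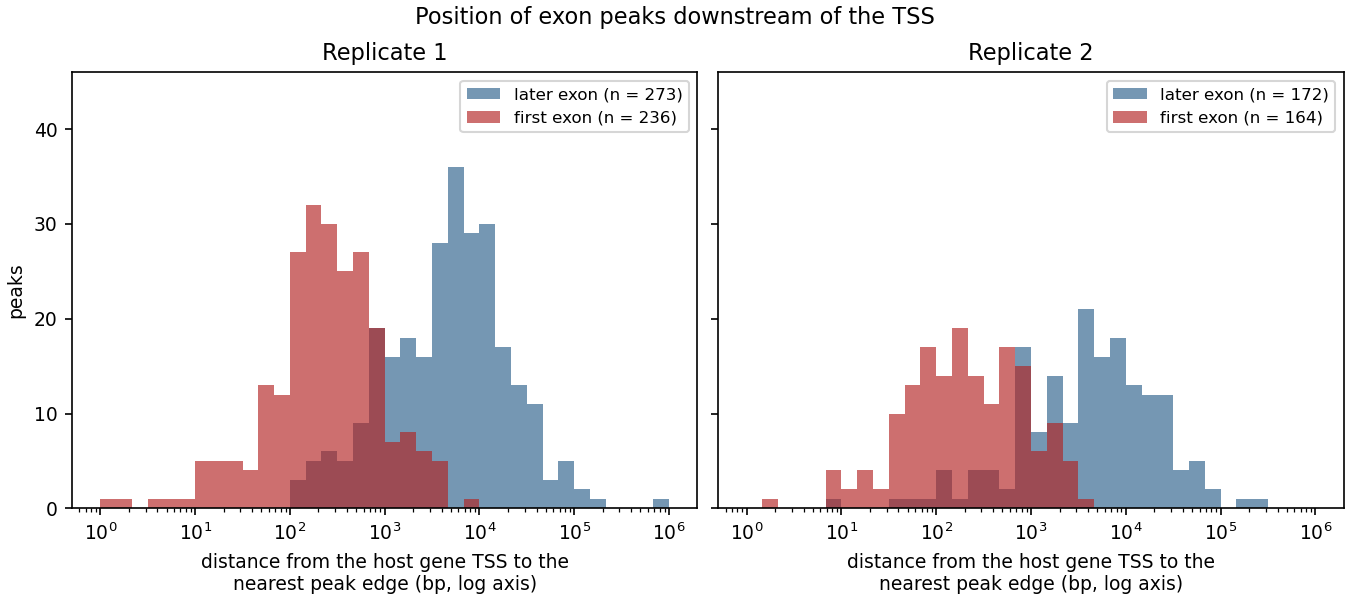
Distance from the TSS of the host gene to the nearest edge of each exon peak (x axis, bp, log scale) against the number of peaks (y axis), for peaks whose assigned gene is the host and that begin downstream of its TSS; red bars are first exons and blue bars later exons. First-exon peaks centre near 246 bp in replicate 1 and 198 bp in replicate 2, and most later-exon peaks lie beyond 1 kb.

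The gene that holds the exon was often not the gene the authors assigned to the peak. In later exons, 137 of 412 peaks (33.3%) in replicate 1 and 75 of 250 (30.0%) in replicate 2 were assigned to another gene. In first exons 4 and 1 were. Of those later-exon peaks, 77 of 137 and 47 of 75 lay upstream of the TSS of the assigned gene. Only 7 and 3 of them lay within 1 kb of it.

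Within the exon class, first and later exons differed in the kind of gene that held them. Protein-coding genes held 136 of 241 first-exon peaks (56.4%) and 357 of 412 later-exon peaks (86.7%) in replicate 1, and 97 of 165 (58.8%) and 220 of 250 (88.0%) in replicate 2. Long noncoding RNA genes held 85 (35.3%) and 53 (32.1%) of the first-exon peaks, against 44 (10.7%) and 25 (10.0%) of the later-exon peaks. Genes known only by a LOC number held 112 of 241 first-exon peaks in replicate 1 (46.5%) and 61 of 165 in replicate 2 (37.0%), so many of these first exons are gene models without an assigned name. The lists keep a separate 5′ UTR class, with 803 peaks in replicate 1 and 636 in replicate 2, which only coding transcripts carry. It can take first-exon peaks of coding genes out of the exon class, so these shares depend on the class scheme. No test was made of them.

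A peak in 1 gene can lie close to another gene. Either boundary of the other gene counts here as an end, so its TSS counts too. Within 1 kb of an end of another protein-coding or long noncoding gene were 36 of 232 first-exon peaks in replicate 1 (15.5%, 11.4 to 20.7) and 37 of 162 in replicate 2 (22.8%, 17.1 to 29.9). The counts for later-exon peaks were 20 of 405 (4.94%, 3.22 to 7.50) and 7 of 244 (2.87%, 1.40 to 5.80). Intron peaks, the other class inside gene bodies, gave 2.59% and 2.35%. These counts leave out peaks on unplaced scaffolds, and the shares were not tested.

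Few of the genes with a later-exon peak had a promoter peak in the same library. A promoter peak was present in replicate 1 for 32.8% and in replicate 2 for 24.9% of all 16491 protein-coding genes that have a symbol. Among coding genes with a later-exon peak the shares were 56 of 316 (17.7%, 13.9 to 22.3) and 33 of 180 (18.3%, 13.4 to 24.6), so most coding genes with a later-exon peak had no promoter peak of their own in these lists. These shares were not tested against each other. Coding genes with an intron peak gave 27.1% and 20.9%. Coding genes with a first-exon peak gave 5 of 121 and 2 of 93, where a peak that crosses the TSS is counted as promoter and not as exon.

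Recurrence between the libraries was lower in exons than outside them in replicate 1. Of all replicate 1 peaks, 53.2% overlapped a replicate 2 peak, and 75% of replicate 2 peaks overlapped a replicate 1 peak. First exons of replicate 1 recurred in 81 of 241 cases (33.6%, 27.9 to 39.8) and later exons in 150 of 412 (36.4%, 31.9 to 41.2), against 5237 of 9620 peaks outside exons (54.4%). Both differences from peaks outside exons passed the test (odds ratios 0.424 and 0.479, adjusted p = 2.92e-09 and 2.12e-11, two-sided Fisher's exact test). First and later exons of replicate 1 did not differ past the threshold, with a difference of -2.80 percentage points (odds ratio 0.884, adjusted p = 0.623, two-sided Fisher's exact test).

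In replicate 2, first exons recurred in 115 of 165 cases (69.7%, 62.3 to 76.2) and later exons in 150 of 250 (60.0%, 53.8 to 65.9), against 5209 of 6886 peaks outside exons (75.6%). The later exons were below the peaks outside exons (odds ratio 0.483, adjusted p = 9.16e-07, two-sided Fisher's exact test). The first exons did not differ from them past the threshold (odds ratio 0.740, adjusted p = 0.176), nor did first from later exons (odds ratio 1.53, adjusted p = 0.119, both by two-sided Fisher's exact test). The first-exon result passed the threshold under a rule on the distance of summits, under a higher threshold on the q-value and with lists of equal length, as given with the alternatives.

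Among the other classes, the recurrence of exon peaks lay below that of promoters and above that of introns. In replicate 1 promoter peaks recurred in 66.9% and 5′ UTR peaks in 51.2% of cases, while intron peaks recurred in 22.6% and distal intergenic peaks in 25.3%. The 3′ UTR peaks of replicate 1 recurred in 35.3% of cases, near the exon peaks, and peaks of the downstream class in 45.1%, above them. Replicate 2 gave another order, with 52.5% for 3′ UTR and 61.8% for downstream peaks. First exons had 69.7% and later exons 60.0% there. Against intron peaks, a comparison added after the data were seen, exon peaks of both kinds recurred more often in both libraries. For later exons the odds ratios were 1.96 and 2.30 (adjusted p = 8.06e-07 and 2.35e-07, two-sided Fisher's exact test). For first exons they were 1.73 and 3.53 (adjusted p = 0.00257 and 8.26e-11, two-sided Fisher's exact test).

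**Figure D2:**
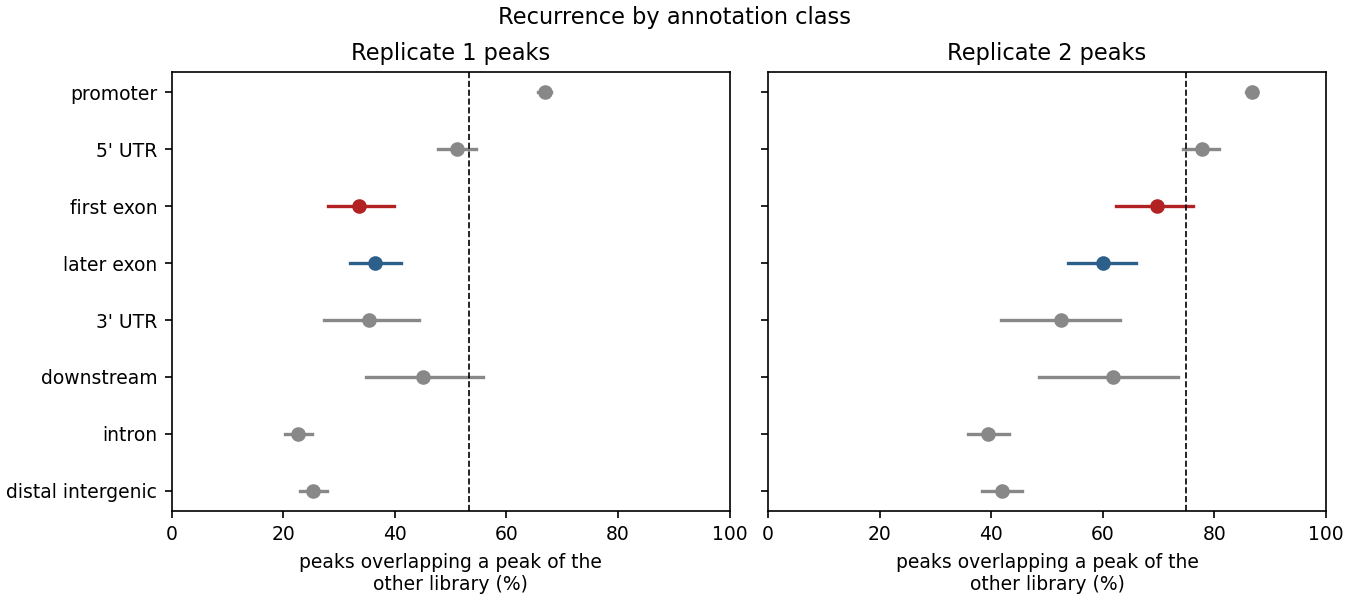
Share of peaks of each annotation class that overlap a peak of the other library (x axis, percent) for replicate 1 (left) and replicate 2 (right), with Wilson 95% intervals as bars and the share over all peaks as a dashed line (53.2% and 75%). First exons (red) and later exons (blue) lie below the promoter class and above the intron class in both libraries.

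Recurrence rose with the height of the summit in every group. In replicate 1, later exons recurred in 25 of 165 cases (15.2%) in the lowest class of summit fragments, 27 of 107 (25.2%) and 43 of 78 (55.1%) in the next classes and 55 of 62 (88.7%) in the highest. First exons rose over the same classes from 13 of 101 (12.9%) to 20 of 23 (87.0%). Peaks outside exons rose from 18.3% to 91.4%.

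Within these classes the odds ratios of exon peaks against peaks outside exons were below 1, with 1 exception. It was first exons in the lowest class of replicate 2 (1.98). Most of these differences did not pass the threshold, in classes of 20 to 165 exon peaks. In replicate 1 the later exons were lower in the middle classes, with 13 to 16 fragments (odds ratio 0.439, adjusted p = 0.00113) and with 17 to 22 (odds ratio 0.549, adjusted p = 0.0466), and the first exons were lower with 13 to 16 (odds ratio 0.520, adjusted p = 0.0466, all by two-sided Fisher's exact test). In the lowest and highest classes of replicate 1 neither group passed. In the classes of replicate 2 above the lowest neither group passed, with adjusted p between 0.0889 and 0.591 by two-sided Fisher's exact test. First exons against introns passed only in the lowest class of replicate 2 (odds ratio 5.37, adjusted p = 3.46e-08, two-sided Fisher's exact test). Later exons against introns passed in no class of either library, with adjusted p between 0.179 and 1 by two-sided Fisher's exact test.

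The lowest class of replicate 2 was the place where first and later exons parted. With 6 to 11 fragments, 38 of 64 first-exon peaks recurred (59.4%, 47.1 to 70.5) against 31 of 106 later-exon peaks (29.2%, 21.4 to 38.5). This difference passed the test (odds ratio 3.54, adjusted p = 0.00113, two-sided Fisher's exact test). Against peaks outside exons in that class, which recurred in 42.5% of cases, the first exons were higher (odds ratio 1.98, adjusted p = 0.0422) and the later exons lower (odds ratio 0.559, adjusted p = 0.0419, both by two-sided Fisher's exact test). In the lowest class of replicate 1 first and later exons recurred in 12.9% and 15.2% of cases, and that difference did not pass (adjusted p = 0.780, two-sided Fisher's exact test).

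**Figure D3:**
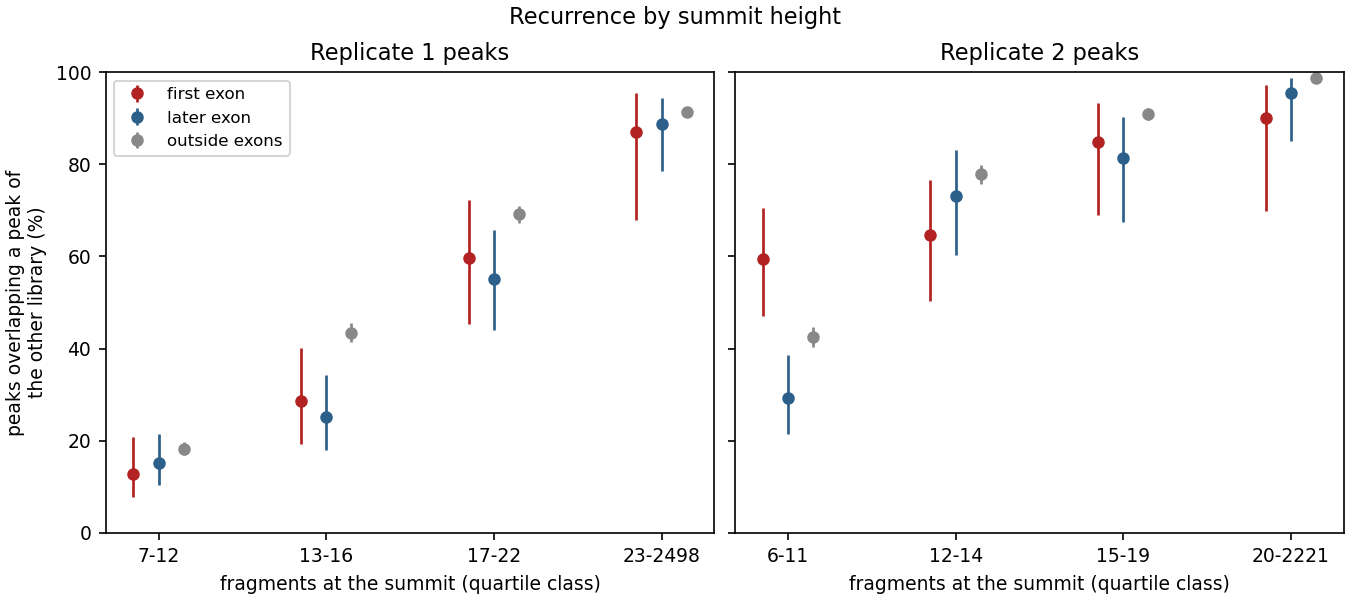
Share of peaks that overlap a peak of the other library (y axis, percent) by quartile class of fragments at the summit (x axis), for first exons (red), later exons (blue) and peaks outside exons (grey), with Wilson 95% intervals. The shares rise from 12.9% to 87.0% in first exons of replicate 1, and in the lowest class of replicate 2 first exons (59.4%) lie above later exons (29.2%).

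What a recurring exon peak met in the other library differed between the groups. Of the 150 recurring later-exon peaks of replicate 1, 128 met a later-exon peak, 13 an intron peak and 5 a promoter peak. All 128 pairs lay in the same gene, 109 in the same exon and 16 in neighbouring exons. Of the 81 recurring first-exon peaks of replicate 1, 54 met the same first exon, 14 a promoter peak and 6 a 5′ UTR peak.

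Seen from replicate 2, first exons met promoters more often. Of its 115 recurring first-exon peaks, 54 met a first exon, 41 a promoter peak and 15 a 5′ UTR peak. All 41 promoter partners in replicate 1 touched the TSS, and 40 of them reached further upstream than the exon peak, by a median of 289 bp. These partners had a median width of 648 bp against 396 bp for the exon peaks, and 38 of 41 were the wider. For such pairs the same site carries the exon class in 1 library and the promoter class in the other. The gene of UCHL1, a ubiquitin hydrolase used as a marker of undifferentiated spermatogonia, is an example: its exon 1 peak in replicate 2 (fold 4.09, 8 fragments) met a promoter peak in replicate 1 (fold 4.17).

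When recurrence was counted only with another exon peak, first exons of replicate 2 fell to 54 of 165 (32.7%) and later exons to 131 of 250 (52.4%). The order of the groups in replicate 2 was then the other way round (odds ratio 0.442, adjusted p = 1.77e-04, two-sided Fisher's exact test). This rule drops 41 promoter and 15 5′ UTR partners of first exons, but 6 and 1 of later exons. The class labels thus lower the odds ratio, and it is no support for a difference in binding.

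Far from any assigned TSS the comparison with peaks outside exons turned. More than 3 kb away, later exons recurred in 110 of 308 cases in replicate 1 (35.7%) against 25.9% of peaks outside exons (odds ratio 1.59, adjusted p = 0.00380), and in 105 of 181 in replicate 2 (58.0%) against 41.8% (odds ratio 1.92, adjusted p = 9.21e-04, both by two-sided Fisher's exact test). Within classes of summit fragments these differences did not pass, with adjusted p between 0.746 and 1 by two-sided Fisher's exact test. In replicate 1 the lowest class held 131 of these 308 later-exon peaks and 1378 of the 2314 peaks outside exons. In replicate 2 it held 83 of 181 and 925 of 1453. Against introns at that distance, 1 part of the peaks outside exons, later exons had medians of 13 against 11 fragments in replicate 1. In replicate 2 the medians were 12 against 10. The part of summit height in the result was not tested beyond these classes.

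The 231 replicate 1 exon peaks that recurred were among the higher exon peaks. The median fold of recurring first-exon peaks was 5.28 against 4.43 for the others in replicate 1, and of recurring later-exon peaks 5.03 against 4.21. Over the pairs the median fold was 5.19 in replicate 1 and 4.94 in replicate 2, and the median ratio of replicate 2 to replicate 1 was 0.950 (quartiles 0.814 and 1.11). The fold was higher in replicate 1 in 134 of the 231 pairs. Across the pairs, log fold had a Pearson r of 0.571 and a Spearman coefficient of 0.481 (n = 231), against 0.645 and 0.586 for the 5237 pairs outside exons. The pairs share the same 2 libraries and are not independent replicates.

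**Figure D4:**
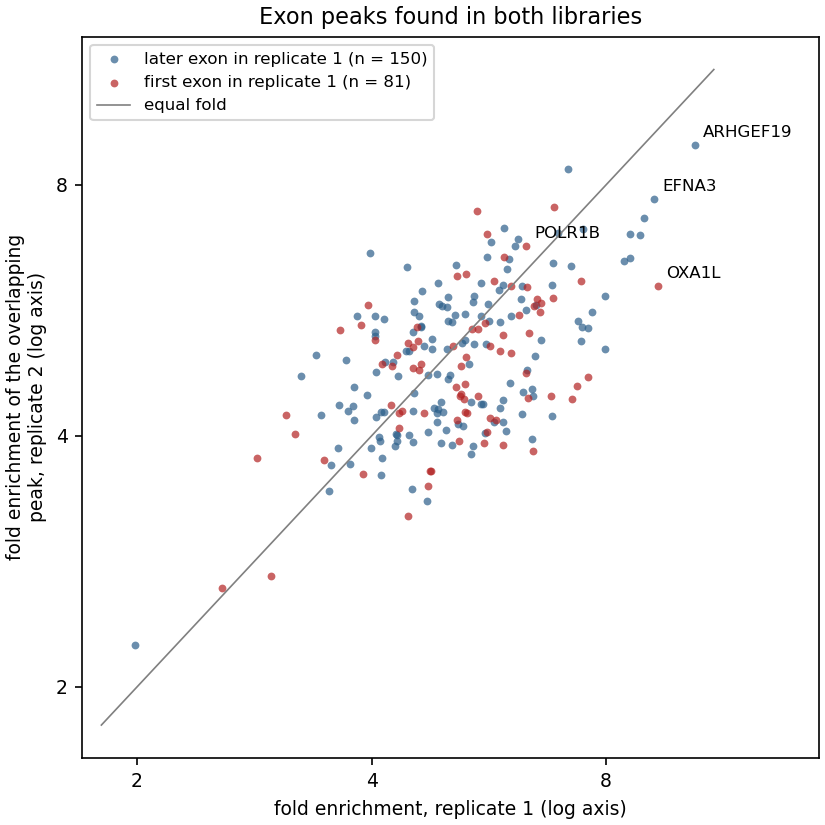
Fold enrichment of each replicate 1 exon peak that recurred (x axis, log scale) against that of the overlapping replicate 2 peak (y axis, log scale), with 81 first-exon peaks in red, 150 later-exon peaks in blue and the line of equal fold in grey. The points scatter around the line with a median ratio of 0.950, and ARHGEF19 and EFNA3 lie at the upper end in both libraries.

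The strongest exon peaks found in both libraries lay in later exons. Coordinates are on Sscrofa11.1. The highest was in exon 5 of 15 of ARHGEF19, a guanine nucleotide exchange factor for small GTPases, at chr6:75325414-75326276 in replicate 1. Its fold was 10.4 in replicate 1, with 58 fragments (44.0 to 75), and 8.93 in replicate 2, with 43 fragments. It stood at the 99.4th percentile of fold in replicate 1 and the 98.5th in replicate 2 and began 3257 bp downstream of the TSS.

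Next in order was exon 3 of 6 of EFNA3, a membrane-bound ligand of Eph receptors, at chr4:94712699-94713315. Its fold was 9.23 and 7.69 in replicates 1 and 2, with 48 and 35 fragments, 6035 bp from the TSS. NOTCH3, a receptor of the Notch pathway, held a peak in exon 11 of 33 at chr2:62375150-62375757, 10643 bp from its TSS. The fold there was 8.83 in replicate 1 and 6.96 in replicate 2, with 37 and 24 fragments. All 3 peaks were higher in replicate 1.

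Some of the strongest later-exon peaks lay in a gene other than the assigned one. The MYO1F peak, in a gene for an unconventional myosin, had a fold of 8.94 with 54 fragments in exon 24 of 27 and met a peak of fold 7.31 annotated to exon 25 in replicate 2. It was assigned to ZNF414, at −5255 bp from that gene's TSS. The PROSER3 peak in exon 9 of 12 had a fold of 8.60 and 6.99 and was assigned to ARHGAP33, a GTPase-activating protein, at −4135 bp. The peak in exon 21 of 24 of JAK3, a kinase of cytokine receptors, had a fold of 6.11 and 6.76 and was assigned to INSL3, a hormone of Leydig cells, at −5975 bp. The files hold no measure that tells which gene such a peak acts on.

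The other later-exon pairs of the named set had folds between 6.07 and 8.59. ZDHHC19, a palmitoyltransferase, held a peak in exon 4 of 7 with a fold of 8.59 and 6.53. MAP3K11, a kinase upstream of JNK, held a peak with a fold of 8.45 in exon 5 of 11 and 6.49 in exon 6. In CHRNB1, a subunit of the muscle acetylcholine receptor, the fold was 6.94 and 7.00. WFS1, an endoplasmic reticulum membrane protein, had a fold of 6.83 and 6.45 in exon 3 of 13, and FBXO17, an F-box protein, had 6.83 and 6.07 in exon 2 of 6. PKD1, which encodes polycystin 1, had a fold of 6.16 and 6.89 in exon 42 of 46, 36711 bp from its TSS, where the peak was 1178 bp wide.

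Among first exons of genes with a symbol the strongest pair by rank in both libraries was in POLR1B, which encodes a core subunit of RNA polymerase I, at chr3:43973455-43974158. Its fold was 6.31 and 6.76, with 17 fragments in each library, 125 bp downstream of the TSS. OXA1L, an insertase of the inner mitochondrial membrane, had the highest first-exon fold of replicate 1, 9.33 with 38 fragments (26.9 to 52.2) at chr7:76265936-76266576. In replicate 2 its fold was 6.05 with 18 fragments. The libraries were nearly level at POLR1B, while at OXA1L replicate 1 stood higher.

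The other first-exon pairs named by rank lay in genes of varied function. VPS33A, a subunit of endosomal tethering complexes, had a fold of 6.34 and 6.04. ERO1B, an oxidase of the endoplasmic reticulum, had 6.04 and 6.05, and CRTAP, a part of the collagen prolyl hydroxylation complex, had 6.58 and 5.63. PHF11, a PHD finger protein, had 5.29 and 6.25. MEIG1, which is needed for sperm formation in mice, had 6.31 and 4.76 at 155 bp from the TSS. The remaining 5, DCAF10, B3GAT2, RNPEP, ECEL1 and EMILIN2, had folds between 4.52 and 5.27 in replicate 1 and between 4.62 and 5.20 in replicate 2.

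**Figure D5:**
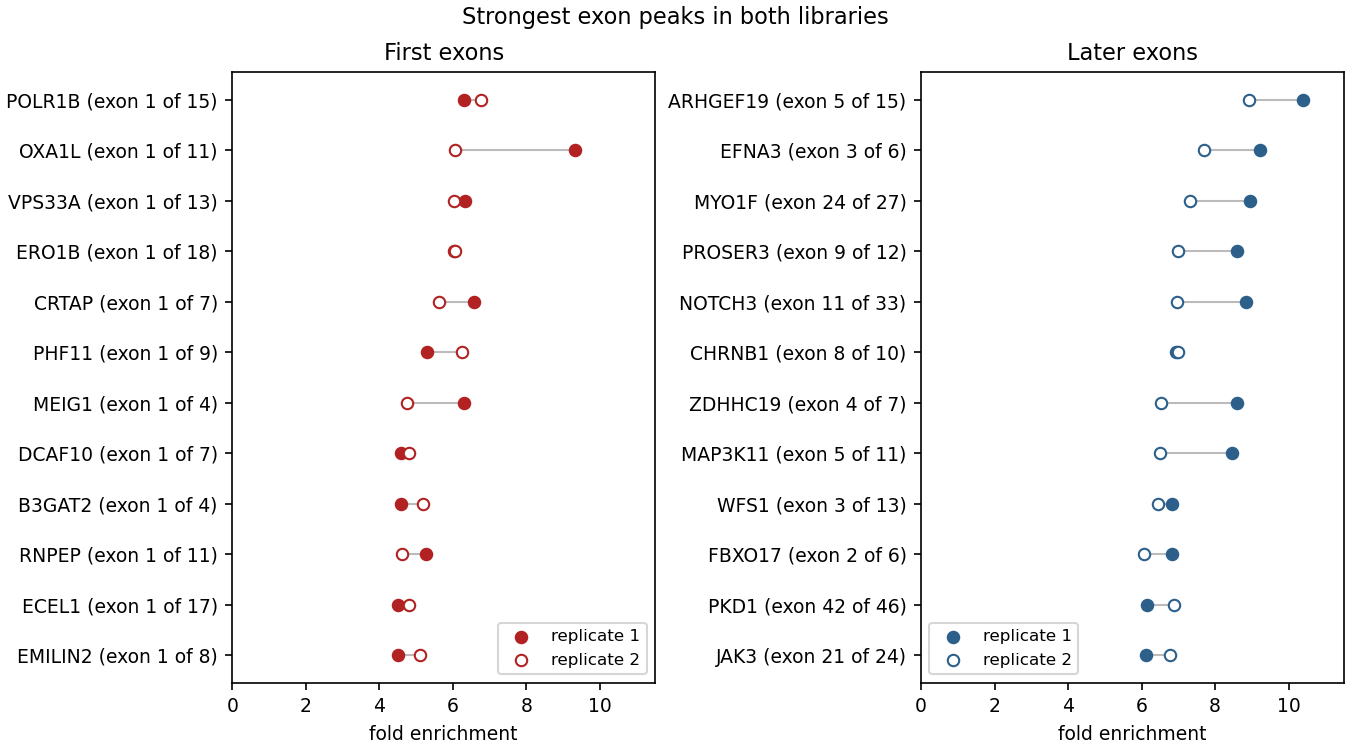
Fold enrichment (x axis) of the 12 first-exon pairs (left, red) and 12 later-exon pairs (right, blue) in genes with a symbol with the highest lower rank of fold, filled circles for replicate 1 and open circles for replicate 2; exon numbers are those of replicate 1. ARHGEF19 reaches 10.4 and 8.93, and OXA1L shows the widest gap among the first exons, 9.33 against 6.05.

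Some high exon peaks were found in 1 library only. In first exons these were GATM, an enzyme of creatine synthesis (fold 7.11, 23 fragments), MTAP, an enzyme of methionine salvage (7.05, 21 fragments), and EMC1, a subunit of a membrane protein insertion complex (6.37, 20 fragments), all in replicate 1, and RNF219, a RING finger protein (6.06, 12 fragments), in replicate 2. In later exons they were STAP2, a signalling adaptor (7.63, 31 fragments in exon 6 of 13), TMEM8B (7.16, 15 fragments) and GRIN1, the obligate subunit of NMDA receptors (6.41, 21 fragments), in replicate 1, and ATP2A3, a calcium pump (6.59, 18 fragments in exon 9 of 21), in replicate 2. These peaks had folds as high as many recurring ones and no overlapping peak in the other list.

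Most hosts held 1 exon peak. In replicate 1, 621 hosts held 1 peak, 13 held 2 and 2 held 3. In replicate 2, 393 held 1 and 11 held 2. The genes with 3 were LTBP3, which encodes a binding protein of latent TGF-beta, and PRKD2, a protein kinase D.

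LTBP3 had peaks in exons 10, 15 and 21 of 28 in replicate 1, with folds of 3.83, 4.12 and 7.46. Replicate 2 had peaks at exons 10 and 21 of LTBP3, with folds of 5.57 and 5.41, and none at exon 15. PRKD2 had peaks in exons 3, 8 and 18 of 18 in replicate 1, with folds of 4.43, 4.05 and 3.24. Replicate 2 had peaks at exons 8 and 18 of PRKD2, with folds of 5.32 and 4.71. The peak without a partner had 14 fragments in each gene. That was at least as many as the PRKD2 peaks that recurred. It was fewer than the LTBP3 peaks that recurred, with 16 and 34 in replicate 1. BCL2L12, a BCL2 family relative, held peaks in exons 3 and 9 of 10 in both libraries, with folds of 4.29 and 4.10 in replicate 1 and 3.89 and 3.94 in replicate 2. BCL2L12 was chosen after its values were seen.

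At the level of genes, 435 protein-coding genes with a symbol held an exon peak in replicate 1 and 273 in replicate 2. Both libraries shared 130 of them, which is 29.9% of the replicate 1 genes and 47.6% of the replicate 2 genes. In either library it was 578 genes, or 3.5% of the 16491, and in both libraries 0.788%. First-exon genes shared 25 of 121 and 93, and later-exon genes 99 of 316 and 180. The shared part was thus 20.7% and 26.9% for first exons and 31.3% and 55.0% for later exons. A gene is shared here only if both libraries give it the same exon group. Of 115 recurring first-exon peaks of replicate 2, 41 met a promoter peak and 15 a 5′ UTR peak. Of 150 later-exon peaks, 6 and 1 did. By overlap with any peak, first exons of replicate 2 recurred in 69.7% and later exons in 60.0% of cases, so the gene shares do not rank the groups.

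ZBTB16 itself held no exon peak, and no peak of any class was assigned to it in either list. Of the 33 listed genes of undifferentiated spermatogonia, 3 held an exon peak (9.09%, 3.14 to 23.57), all in replicate 2 only. The interval includes the background of 3.5% of genes. RET, the receptor of the niche factor GDNF, had a fold of 5.60 with 13 fragments in exon 5 of 22, 30071 bp from its TSS, and met an intron peak of fold 6.37 in replicate 1. GLIS3, a zinc finger transcription factor, had a fold of 4.04 with 7 fragments in exon 4 of 11 and no partner. The peak of UCHL1 was described above. None of the 13 listed genes of differentiating spermatogonia, 28 of meiosis or 25 of the piRNA pathway and germline identity held one. The upper limits of their shares were 22.8%, 12.1% and 13.3%, above the 3.5% of all genes. These counts therefore do not rank the lists.

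Among markers of the other cells of the testis the counts were 0 or 1 per list, too few to set against the 3.5% of all genes. Of 16 Sertoli cell genes, WT1, a transcription factor of the supporting lineage, had a fold of 3.46 in exon 3 of 9 in replicate 1 only. Of 6 genes of peritubular myoid cells, MYH11, smooth muscle myosin, held a peak in exon 42 of 43 in both libraries, with folds of 4.05 and 5.56. The 9 Leydig cell genes and the 10 macrophage and endothelial genes held none. Peaks do not measure expression, so these counts do not check the labelled cell type.

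Among 60 chromatin regulators 3 held exon peaks (5.0%, 1.71 to 13.7), all in later exons, near the 3.5% of all genes. SMARCA2, an ATPase of the BAF complex, and KMT2A, a histone H3 lysine methyltransferase, had folds of 3.54 and 3.53 with 6 fragments each in replicate 2 only. None of the 38 cell cycle genes, 42 ZBTB genes, 36 HOX genes, 19 SOX genes, 43 FOX genes, 35 keratins, 18 ZSCAN and ZKSCAN genes and 2 histone genes held one, and at 3.5% lists of these sizes would be expected to hold few or none.

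In the signalling lists, 2 of 32 genes of GDNF, FGF and RAS-MAPK signalling had an exon peak, RET among them. Of 30 NOTCH and WNT genes, NOTCH3 was joined by JAG2, a Notch ligand, with a fold of 5.45 in exon 13 of 26 in replicate 2. Of 26 mTORC1 genes, LAMTOR4, a subunit of the lysosomal Ragulator complex, had a fold of 4.91 in replicate 1. In this order the shares were 6.25% (1.73 to 20.15), 6.67% (1.85 to 21.32) and 3.85% (0.682 to 18.89). Each interval includes the 3.5% of all genes.

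The large gene families lay near or under the background of 3.5%. Of 256 ZNF zinc finger genes, 6 held an exon peak (2.34%, 1.08 to 5.02), with ZNF668 the strongest at folds of 7.97 and 5.09 in exon 3 of 4. ZNF653 had a fold of 6.80 in exon 1 and met a 5′ UTR peak, ZNF628 had 5.81 in exon 2 of 4 in replicate 2 and met an intron peak, and ZNF554 had 4.04 and 5.27 in exon 2 of 6. Of 354 solute carriers, 10 held one (2.82%, 1.54 to 5.12), all 10 in replicate 1 with folds between 3.82 and 4.79, and only SLC3A2, the heavy chain of amino acid transporters, held one in both libraries. SLC3A2 was chosen after its values were seen.

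Of the other families, 2 of 29 plexins and semaphorins held an exon peak, among them SEMA6B with folds of 4.93 and 5.72 in exon 6 of 17 in both libraries. The counts were 3 of 24 ADAMTS genes, 2 of 44 collagens and 1 each of 13 protocadherins, 61 kinesins and dyneins and 89 cytosolic ribosomal protein genes, none of them in both libraries. COL9A1, a collagen chain, had the highest fold among these, 6.25 with 16 fragments in replicate 2. Over all genes the share was 3.5% in either library and 0.788% in both. It was 6.90% for plexins and semaphorins (1.91 to 22.0) and 12.5% for the ADAMTS list (4.34 to 31.0). The ADAMTS list includes the ADAMTS-like gene ADAMTSL5, and both are among 28 lists. These shares were not tested.

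Chromosomes 6 and 2, among others, held a larger share of the exon peaks than of all peaks, a difference that was not tested. Chromosome 6 held 113 of the 653 exon peaks of replicate 1 (17.3%) against 11.4% of all its peaks, and 64 of 415 in replicate 2 (15.4%) against 11.7%. Chromosome 2 held 84 (12.9%) against 9.36% and 51 (12.3%) against 9.52%. Chromosomes 3, 7 and 10 and the unplaced scaffolds also held more in both libraries. Chromosome 10 held 3.22% against 2.53% and 3.13% against 2.42%. The unplaced scaffolds held 2.45% against 1.51% and 2.17% against 1.53%. The hosts ARHGEF19, PROSER3, FBXO17 and PRKD2 lie on chromosome 6, and NOTCH3, MYO1F, MAP3K11, JAK3, STAP2 and LTBP3 on chromosome 2.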

How the data were processed

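Peaks were deposited by the authors per library, 1 list each for replicates 1 and 2. Sscrofa11.1 is the build named in the labels (per the submitters' processing notes). Aligner, peak caller, control and annotation software: not given in the sources used here. Per the file headers, each peak carries a fold enrichment (a linear ratio), a −log10 p-value and a −log10 q-value, and a score. The deposited score was 10 times the −log10 q-value and was not used further. No source used here gives the sequencing depth.

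Summit fragments and background were solved from fold = (fragments + 1)/(background + 1) and the Poisson tail, within a tolerance of 1e-05, for 100% of peaks, and the solver was tested on simulated data. Exon class, host gene and exon number were read from the deposited annotation, and the distance to the TSS is to the assigned gene. Host symbols matched the RefSeq gene table for Sscrofa11.1 in 99.4% and 97.8% of exon peaks. Unplaced scaffolds were kept.

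Shares that recurred were compared by two-sided Fisher's exact tests with Benjamini-Hochberg adjustment over 30 tests (3 contrasts, 2 libraries, all peaks and 4 classes of summit fragments) and a threshold of 0.05. The same adjustment was applied within each alternative. Alternatives covered the overlap rule, stricter thresholds, list length, 1 peak per gene, 1-exon transcripts, scaffolds, distance and the comparison group. Named are ZBTB16, the 12 first-exon and 12 later-exon pairs with a symbol and the highest lower rank of fold, the 4 strongest of each kind in 1 library only, genes with 3 peaks and up to 4 members of each of 28 gene lists. A few of them are not reported here. The members and lists were chosen with earlier results of these data known. Software was matplotlib 3.10.9, scipy 1.17.1, pandas 2.3.3 and numpy 2.4.6 under Python 3.11.15.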

Additional observations from a re-analysis of the deposited data

How the results depend on the processing

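Odds ratios of recurrence are given as first or later exons against the group named. First exons of replicate 2 against peaks outside exons, which missed the threshold at 0.740, passed it with summits within 200 bp (0.634, adjusted p = 0.0302), −log10 q of 3 or more (0.482, adjusted p = 0.00719) and equal list lengths (0.618, adjusted p = 0.0158), all Fisher's exact p-values (two-sided). Recurrence with an exon peak only gave 0.157, which its construction lowers, since peaks outside exons kept partners of any class, so it is no support for a difference. That setting turned first against later exons of replicate 2 to 0.442, a value that the class labels lower too. At fold of 5 or more, later exons of replicate 1 against peaks outside exons no longer passed (0.719, exact adjusted p = 0.265), when 115 later-exon peaks were left. More than 3 kb from the TSS, first exons gave 0.408 in replicate 1 (8 peaks) and 4.17 in replicate 2 (1 peak), and later exons turned to 1.59 and 1.92. With intronic peaks as the comparison, added after the data were seen, first exons turned to 1.73 and 3.53 and later exons to 1.96 and 2.30. The cause of these changes was not tested. The later-exon share moved from 62.0% to 59.0% at fold of 5 or more and was 60.2% to 63.1% with either replicate left out. Of the other results under alternatives, 60 kept direction and side of the threshold, or moved a value by less than its spread, as did 10 of those added, including 5′ UTR peaks as the comparison and high-background peaks left out. No paired analysis was possible because both libraries belong to 1 group. Recurrence needs both libraries, so no replicate could be left out of it, and the sequence alternatives were not run because no genome was used here. With medians of 12 to 14 fragments at the summit, depth limits whether an exon peak without a partner was absent from the other library or below its threshold, and the counts do not tell these apart.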

Other observations

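Transfer RNA genes, short genes read by RNA polymerase III, were the hosts of 5 exon peaks in replicate 1 and 11 in replicate 2. Of these, 3 and 7 recurred. TRNAM-CAU-3 had the highest fold, 6.59 with 34 fragments in replicate 2, and met a promoter peak of fold 8.05 in replicate 1. Other tRNA hosts met promoter peaks too: TRNAY-GUA-5 had a fold of 5.31 and its partner 5.87, and TRNAQ-CUG-2 had 3.60 and its partner 4.87. Exon peaks in both libraries were found at TRNAC-GCA-8, with folds of 5.21 and 4.85, and at TRNAH-GUG-6, with folds of 4.46 and 3.21. All 16 peaks began within 100 bp of the TSS. These hosts were chosen after their values were seen, and copies of a tRNA gene are near-identical, so reads can be shared between them.

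Some exon peaks on unplaced scaffolds had many fragments at the summit over a high background. The peak in exon 3 of 9 of LOC100514433 was 3562 bp wide in replicate 1 and 3524 bp in replicate 2, with 273 and 243 fragments at the summit. Its background was 137 and 108 fragments, so the fold was 1.99 and 2.25. On another scaffold, the peak in exon 2 of 4 of LOC102160834 had 233 and 182 fragments, a background of 40.7 and 34.5 and a fold of 5.61 and 5.16. These were chosen after their values were seen, and whether such scaffolds hold repeated sequence was not tested.

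The JAK3 gene held another exon peak in replicate 2, in exon 6 of 24, with a fold of 7.04 and 24 fragments. It met a peak of fold 6.36 in replicate 1 that was annotated to an intron. GRIN2D, a subunit of NMDA receptors, held a first-exon peak in both libraries, with folds of 5.25 and 4.43, and a peak in exon 5 of 13 in replicate 1 only, with a fold of 4.51. JAK3 exon 6 and GRIN2D were chosen after their values were seen.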
